A study of Mus musculus with 2 samples.

Results

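The cells described here are stromal cells of a mouse uterus library labelled as a Mig-6 knockout that held at least 1 unique molecular identifier (UMI, a count of 1 captured RNA molecule) of at least 2 of the 5 genes Wnt4, Bmp2, Inhbb, Alpl and Nrg1. They numbered 388 of the 1085 stromal cells of that library, and 7413 cells were kept in both libraries together. Stromal cells were those with at least 10 UMIs per 10000 of the stromal genes Dcn, Col1a2, Col3a1, Col6a2, Pdgfra and Hsd11b2 summed. They also had fewer than 5 per 10000 of the epithelial genes Epcam, Krt8, Krt18 and Cldn7, and fewer than 20 of the muscle genes Actg2, Cnn1, Myh11 and Des. The 5 rule genes are a choice made from measured values, so their levels in these cells (called members below) are a description. Members were compared with the 265 stromal cells of the same library that held none of the 5 genes. Another 432 stromal cells held exactly 1.

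Both libraries came from the uterus of female mice at gestational day 3.5. The library labelled knockout had the genotype Pgrcre/+Mig-6f/f, floxed for Mig-6 with a Cre carried at the progesterone receptor gene Pgr, and the control library was Mig-6f/f without Cre. Cre is therefore directed to cells that express Pgr, and its presence at Pgr cannot be told apart from the loss of Mig-6. Each genotype was represented by 1 library, prepared by trypsin digestion, removal of blood cells with a dead cell kit and 10x droplet capture. With no replicate libraries no test was possible, and every interval given is a 95% interval that covers counting error only.

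Around this stage the stroma beneath the uterine lining prepares for decidualization, the change of stromal fibroblasts into the cells that surround an implanting embryo. Bmp2, a bone morphogenetic protein, and Wnt4, a WNT ligand downstream of it, are both needed for that change in the mouse. Inhbb encodes the beta B subunit of activins and inhibins, Alpl encodes the tissue-nonspecific alkaline phosphatase long used to stain decidual cells, and Nrg1 encodes neuregulin, a ligand of ERBB receptors. Errfi1 encodes Mig-6, which responds to progesterone in the uterus and restrains EGF receptor activity.

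The targeted gene did not follow the label in stroma. Errfi1 was at 741 CPM (UMIs per 1000000 UMIs) in stroma of the library labelled knockout and 193 CPM in control stroma, a ratio of 3.83 (3.67 to 4.01). Members carried it at 757 CPM in the library labelled knockout and 170 CPM in the control library. The sources used here do not say which exons the floxed allele loses, and 3′ counts from exons that remain would not report the deletion. Directions below are therefore given by library label. Of 3118 barcodes with 23317904 UMIs, 2951 were kept in the library labelled knockout, and of 4627 barcodes with 44871170 UMIs, 4462 were kept in the control library. The median stromal cell had 3628 UMIs in the library labelled knockout and 9001 UMIs in the control library. The libraries shared 3 barcodes, 0 of them stromal in both.

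Members were a larger share of the stroma in the library labelled knockout than in the control library, although its cells were shallower. They made up 35.8% (32.9 to 38.7) of stroma in the library labelled knockout and 317 of 3340 cells, 9.49% (8.52 to 10.5), in the control library. After every cell was thinned to 2000 UMIs, the shares were 20.2% (17.8 to 22.9) of 968 cells in the library labelled knockout and 1.39% (1.02 to 1.85) of 3308 cells in the control library. Thinning left out 117 shallower stromal cells of the library labelled knockout and 32 of the control library. Within the library labelled knockout, the share of members was 21.2% in the shallowest of 5 equal bins of UMIs and 54.4% in the deepest. The same bins of control stroma ran from 2.69% to 16.0%. Membership thus followed depth in both libraries, and the median member had 4001.5 UMIs against 3019 UMIs in the median cell holding none.

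**Figure D1:**
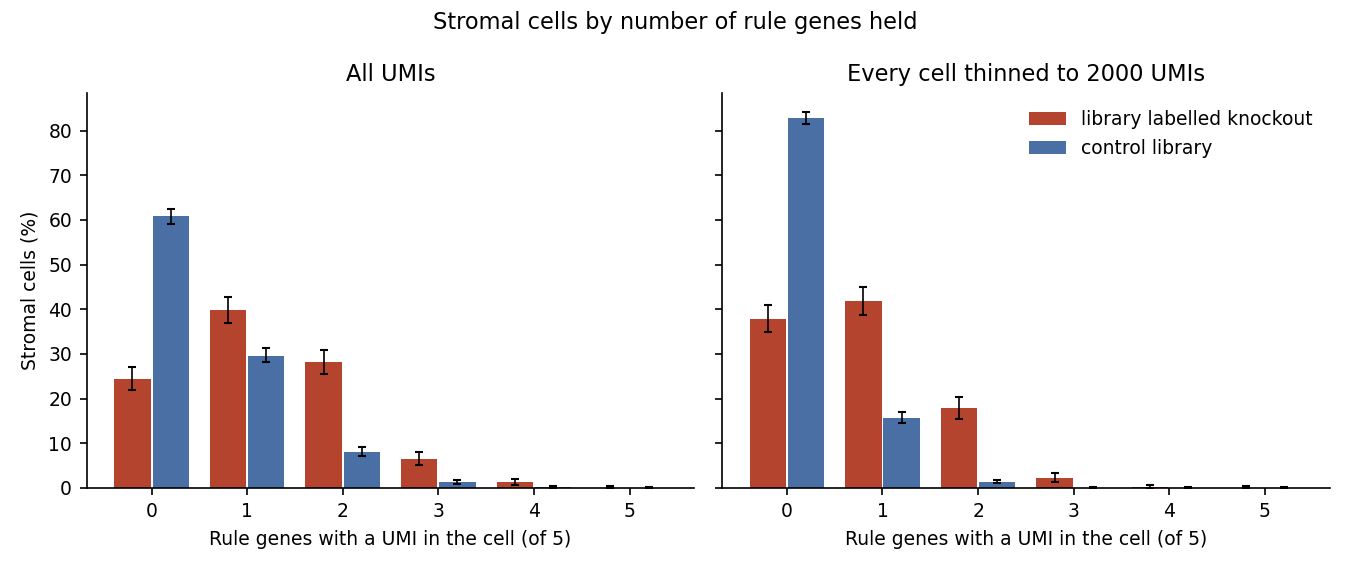
Share of stromal cells (%) by the number of the 5 rule genes with a UMI in the cell, with all UMIs (left) and with every cell thinned to 2000 UMIs (right), for the library labelled knockout (red) and the control library (blue); bars end in exact binomial 95% intervals. Cells holding 2 genes were 28.1% of stroma in the library labelled knockout and 8.08% in the control library.

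Most members sat at the edge of the rule, and nearly all of them held Nrg1. Exactly 2 genes were held by 305 members, 3 by 70 and 4 by 13, and 0 cells held all 5. Nrg1 was in 362 of the 388 members (93.3%), Inhbb in 67.5%, Bmp2 in 34.5%, Wnt4 in 27.1% and Alpl in 2.32%. The most frequent combination was Inhbb with Nrg1 and no other rule gene, in 171 members (44.1%), followed by Bmp2 with Nrg1 in 64 (16.5%) and Wnt4 with Nrg1 in 41 (10.6%). Wnt4, Bmp2 and Inhbb were found together in 11 members with Nrg1 and in 1 member without Nrg1 or Alpl. In 74 members each gene held was represented by a single UMI. Control members were made up differently, with Bmp2 and Nrg1 in 119 of 317 (37.5%) and Inhbb and Nrg1 in 50 (15.8%).

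Detection of the rule genes outside the stroma serves as a rough guide to their background. In the library labelled knockout, cells chosen by immune genes numbered 179, with a median of 2050 UMIs. Nrg1 was detected in 61.4% of stromal cells and 7.26% of those immune cells. Among stromal cells Inhbb was detected in 32.0%, Bmp2 in 14.3% and Wnt4 in 11.0%, against 1.12%, 1.12% and 0.559% of the immune cells. With every cell thinned to 2000 UMIs, Inhbb was in 19.2%, Bmp2 in 8.16% and Wnt4 in 7.13% of stromal cells, against 0, 0 and 1 of 91 immune cells. The 1488 cells over the epithelial limit, with a median of 9610.5 UMIs, had higher shares for some genes. Nrg1 was in 21.4% of them, Inhbb in 16.9%, Wnt4 in 3.56% and Bmp2 in 0.739%. In 1429 such cells thinned to 2000 UMIs, the shares were 5.88%, 3.50%, 0.28% and 0.07%, in that order. Alpl was different, with 1.57% of stromal cells, 3.35% of immune cells and 82.3% of the 1488 cells over the epithelial limit. Over stroma as a whole the Alpl share was not above that of immune cells, and it is not read as expression in these cells. The immune share is itself not a plain background, since 30 Alpl UMIs lay in 6 immune cells, up to 10 in 1 cell. Nrg1 was also uneven there, with 56 UMIs in 13 immune cells and up to 21 in 1 cell. Of the 27 stromal Alpl UMIs, 16 lay in a single small cluster described below, and their source was not tested.

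Whether the rule genes travel together was examined by leaving each one out of the choice of cells. Cells holding at least 2 of the other 4 genes were paired on UMIs with cells holding none of those 4, and the gene left out was then counted. Bmp2 had 82 UMIs (87.3 CPM) in 247 cells holding the others and 24 UMIs (27.8 CPM) in 247 cells holding none, a ratio of 3.14 (1.97 to 5.17). It was detected in 20.6% of the holders and 7.69% of cells holding none. Wnt4 was at 45.8 CPM in holders and 20.6 CPM in cells holding none, a ratio of 2.22 (1.23 to 4.17), and was detected in 12.2% of 237 holders and 5.49% of 237 cells holding none. Nrg1 was at 955 CPM in holders and 552 CPM in cells holding none, a ratio of 1.73 (1.48 to 2.02) over 108 pairs, so all 3 genes were higher where the other genes were held. In pairs also matched on long genes, which are described below, the ratio was 2.40 (1.29 to 4.70) for Bmp2 and 1.35 (1.16 to 1.57) for Nrg1. For Wnt4 it was 1.73 (0.820 to 3.84), an interval that includes 1.

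Inhbb did not show that relation in the library labelled knockout. It was at 132 CPM in 185 cells holding at least 2 of the other genes and 125 CPM in 185 cells holding none, a ratio of 1.06 (0.791 to 1.42). It was detected in 33.5% of the holders and 33.0% of cells holding none. Alpl went the other way, with 1 UMI in 242 holders and 10 UMIs in 242 cells holding none, a ratio of 0.0913 (0.0021 to 0.642). That ratio was 0.568 (0.195 to 1.60) with UMI bins in place of pairs and 0.435 (0.149 to 1.22) without matching, and both intervals include 1. In the control library Inhbb was detected in 14.8% of holders and 3.28% of cells holding none, a CPM ratio of 4.21 (2.32 to 8.16). The control ratios were 1.53 (1.03 to 2.31) for Bmp2, 2.28 (1.78 to 2.94) for Nrg1 and 1.58 (0.858 to 2.96) for Wnt4. The name Wnt4, Bmp2 and Inhbb positive therefore fits the cells only in part. In the library labelled knockout Inhbb was detected about as often with at least 2 as with none of the other 4 genes held. Alpl was in few members. Split by Nrg1 alone, Inhbb was in 35.9% (31.3 to 40.8) of cells with it and 26.2% (22.0 to 30.7) of UMI-paired cells without it. Split by Wnt4 the shares were 41.2% with it and 38.7% without it. Split by Bmp2 they were 34.8% and 37.4%, and by Alpl, over only 17 pairs, 11.8% and 41.2%.

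**Figure D2:**
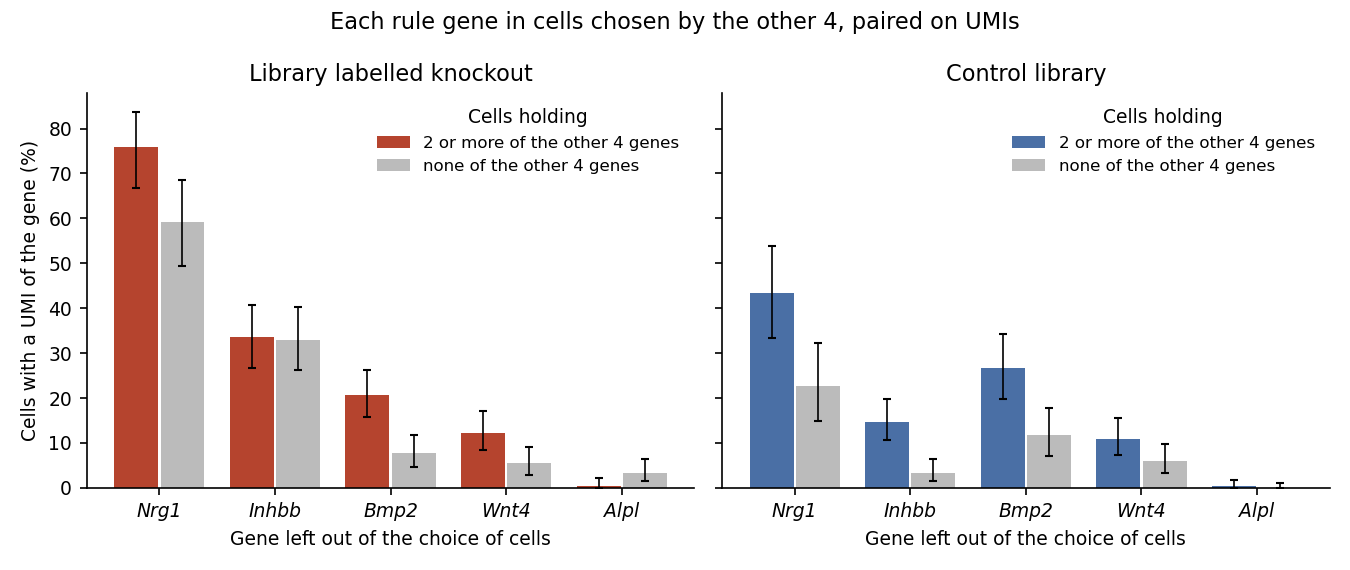
Share of cells (%) with a UMI of each rule gene when that gene was left out of the choice of cells, in cells holding at least 2 of the other 4 genes (coloured) and UMI-paired cells holding none of those 4 (grey), in the library labelled knockout (left) and the control library (right), with exact binomial 95% intervals. Inhbb was in 33.5% of holders and 33.0% of cells holding none in the library labelled knockout, and in 14.8% of holders and 3.28% of cells holding none in the control library.

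Immune, endothelial and epithelial markers were low in both groups, in part because the gate on epithelial and muscle genes chose the cells. The 6 stromal genes of the gate summed to 8097 CPM in the 236 members that could be paired with a cell holding none within 10% of its UMIs, and 8874 CPM in the paired cells holding none. Of 10 immune markers, 1 UMI was found over the 236 paired members together and 0 over the cells holding none. The endothelial markers Pecam1, Cldn5 and Tie1 were at 0 in both groups, and all 7 endothelial markers summed to 16.0 CPM in members and 26.3 CPM in cells holding none. The 7 epithelial markers outside the gate summed to 54.8 CPM in members and 67.6 CPM in cells holding none. Pericyte markers differed between the groups: 5 UMIs of 4 of the 6 genes lay in members, with Kcnj8 and Higd1b at 0, and 106 UMIs of all 6 lay in cells holding none. Of those cells holding none, 6 carried at least 2 pericyte markers, and the highest had 30 UMIs of them. The smooth muscle genes outside the gate, Acta2 and Tagln, summed to 33.1 CPM in members and 130.2 CPM in cells holding none. Acta2, a smooth muscle actin, had 1 UMI in members and 31 UMIs in cells holding none. With the gate genes included, the 6 smooth muscle markers were not low. They summed to 652 CPM in members, where Actg2, Cnn1 and Myh11 were at 0, and 874 CPM in cells holding none. At least 1 UMI of them was in 83.9% of members and 89.4% of cells holding none. The 5 mesothelial markers summed to 117 CPM in members and 119 CPM in cells holding none.

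The 2 paired groups also differed in the make-up of their RNA, and pairing on UMIs alone does not separate that difference from the paired results below. Paired members had a median of 3641.5 UMIs, and paired cells holding none 3298. Genes that span at least 100 kb gave 15.4% of UMIs in members and 11.8% in cells holding none, ribosomal protein genes gave 18.3% in members and 20.7% in cells holding none, and the nuclear RNA Malat1 gave 1.97% in members and 1.34% in cells holding none. Control long genes gave 15.3% in members and 14.3% in cells holding none, and Malat1 gave 1.21% in members and 1.12% in cells holding none. Nrg1, which most members hold, itself spans 1069 kb, and it was left out of these shares. The part of this difference in the results was not tested, but the comparison was repeated in 170 pairs that were also matched on the share of long genes, which was then 12.8% in members and 12.7% in cells holding none.

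**Figure D3:**
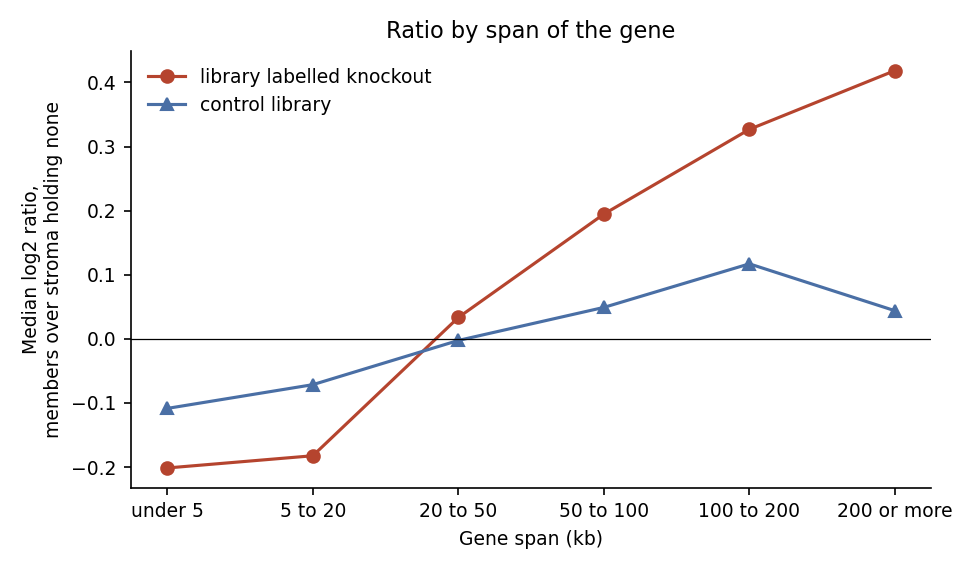
Median log2 ratio of CPM, members over stroma holding none, for genes grouped by the length of genome they span (kb), in the library labelled knockout (red circles) and the control library (blue triangles). In the library labelled knockout the median was -0.20 for genes under 5 kb and 0.42 for genes of 200 kb or more.

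Members and cells holding none differed over many genes. Of 5095 genes with at least 50 UMIs over both groups, 192 (3.77%) were at least 2-fold higher in members and 58 (1.14%) at least 2-fold lower, and rule genes are among the higher ones. The same comparison over 316 pairs of the control library had 175 of 9208 genes (1.90%) higher and 60 (0.652%) lower. In pairs also matched on long genes, 42 of 4079 genes (1.03%) were at least 2-fold higher and 39 (0.956%) lower in the library labelled knockout. Without rule and gate genes, 188 genes were called higher, and 182 of them had at least 50 UMIs in the control library. There, 170 of the 182 were above a ratio of 1 and 30 were at least 2-fold higher. Over all control genes with at least 20 UMIs, 5135 of 11287 were above a ratio of 1. Of the 188 genes, 52 span 100 to 200 kb and 46 span 200 kb or more. Among all 5084 genes tested without rule and gate genes, 588 span 100 to 200 kb and 407 span 200 kb or more. The share called higher was 8.84% and 11.3% in these classes, and 1.23% in genes under 5 kb. The control median log2 ratio was 0.12 for genes of 100 to 200 kb, 0.04 for 200 kb or more and -0.11 under 5 kb. Of the 58 genes called lower, 45 were below a ratio of 1 in the control library and 0 were at least 2-fold lower.

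Ccl2, a chemokine that attracts monocytes, ranked first among the higher genes by the lower bound of its ratio. It had 392 UMIs (448 CPM) in 75 of 236 members and 49 UMIs (61.3 CPM) in 26 of 236 cells holding none, a ratio of 7.30 (5.42 to 10.0). No single cell decided this, since the highest member had 26 UMIs and the highest cell holding none had 6. Across all stroma of that library, Ccl2 was detected in 155 of 388 members and 27 of 265 cells holding none. In the clusters described below, Ccl2 was at 734 CPM in cluster 1, 286 CPM in cluster 0 and 318 CPM in cluster 4. It was at 6.60 CPM in cluster 2 and 1.26 CPM in cluster 3, although these held 53 and 65 members. Ccl2 was thus not a trait of all members. By number of rule genes held, its level was 707.8 CPM at 3 or more, 368 CPM at 2, just inside the rule, and 209 CPM at 1, just outside. In the control library Ccl2 was at 85.1 CPM in members and 21.9 CPM in cells holding none, a ratio of 3.89 (3.01 to 5.07). In the pairs matched on long genes the ratio was 4.88 (3.43 to 7.09).

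Transcription regulators and signalling genes followed. Maml2, a coactivator of Notch receptors, was at 822 CPM in 146 members and 203 CPM in 77 cells holding none, a ratio of 4.06 (3.42 to 4.84). Zeb2, a repressor that binds SMAD proteins, was at 1186 CPM in members and 424 CPM in cells holding none, a ratio of 2.79 (2.47 to 3.17). The repressor Bach2 had a ratio of 3.75 (2.59 to 5.56), the zinc finger factor Glis3 one of 3.57 (2.59 to 5.02) and the chromatin remodeller Chd2 one of 2.95 (2.28 to 3.87). Kalrn, an exchange factor for small GTPases, was at 135 CPM in members and 36.3 CPM in cells holding none, and Crim1, which binds bone morphogenetic proteins, was at 146 CPM in members and 45.1 CPM in cells holding none. All of these span more than 100 kb, whereas Ccl2 spans 1.88 kb.

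Membrane and matrix genes made up the rest of the 15 higher genes chosen by the rule. Retreg1, a receptor for autophagy of the endoplasmic reticulum, had 124 UMIs in 76 members and 22 UMIs in 18 cells holding none, a ratio of 5.14 (3.25 to 8.50). Col4a3, a basement membrane collagen chain, was at 186 CPM in members and 52.6 CPM in cells holding none. Kcnip4, a potassium channel partner, was at 407 CPM in members and 133 CPM in cells holding none. Etl4, Cdh13, Pcdh9 and Aig1 rested on 48 to 72 UMIs in members and 4 to 14 in cells holding none. In the control library all 15 genes were above a ratio of 1, 13 had an interval above 1, and 7 (Ccl2, Maml2, Cdh13, Bach2, Col4a3, Kalrn and Crim1) were at least 2-fold higher. In control pairs also matched on long genes, 13 of the 15 were above 1, 11 had an interval above 1 and 6 were at least 2-fold higher. Cdh13 was then at 0.696 (0.379 to 1.26) and Kcnip4 at 0.816 (0.628 to 1.06), both with intervals that include 1. In the pairs of the library labelled knockout matched on long genes all 15 were again above 1, 13 with an interval above 1 and 9 at least 2-fold higher. Below 2-fold there were Zeb2 at 1.75 (1.51 to 2.02), Glis3 at 1.71 (1.19 to 2.50), Chd2 at 1.74 (1.28 to 2.39) and Col4a3 at 1.76 (1.19 to 2.63). Bach2 was 1.56 (0.972 to 2.54) and Kcnip4 1.30 (0.994 to 1.70), with intervals that include 1.

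**Figure D4:**
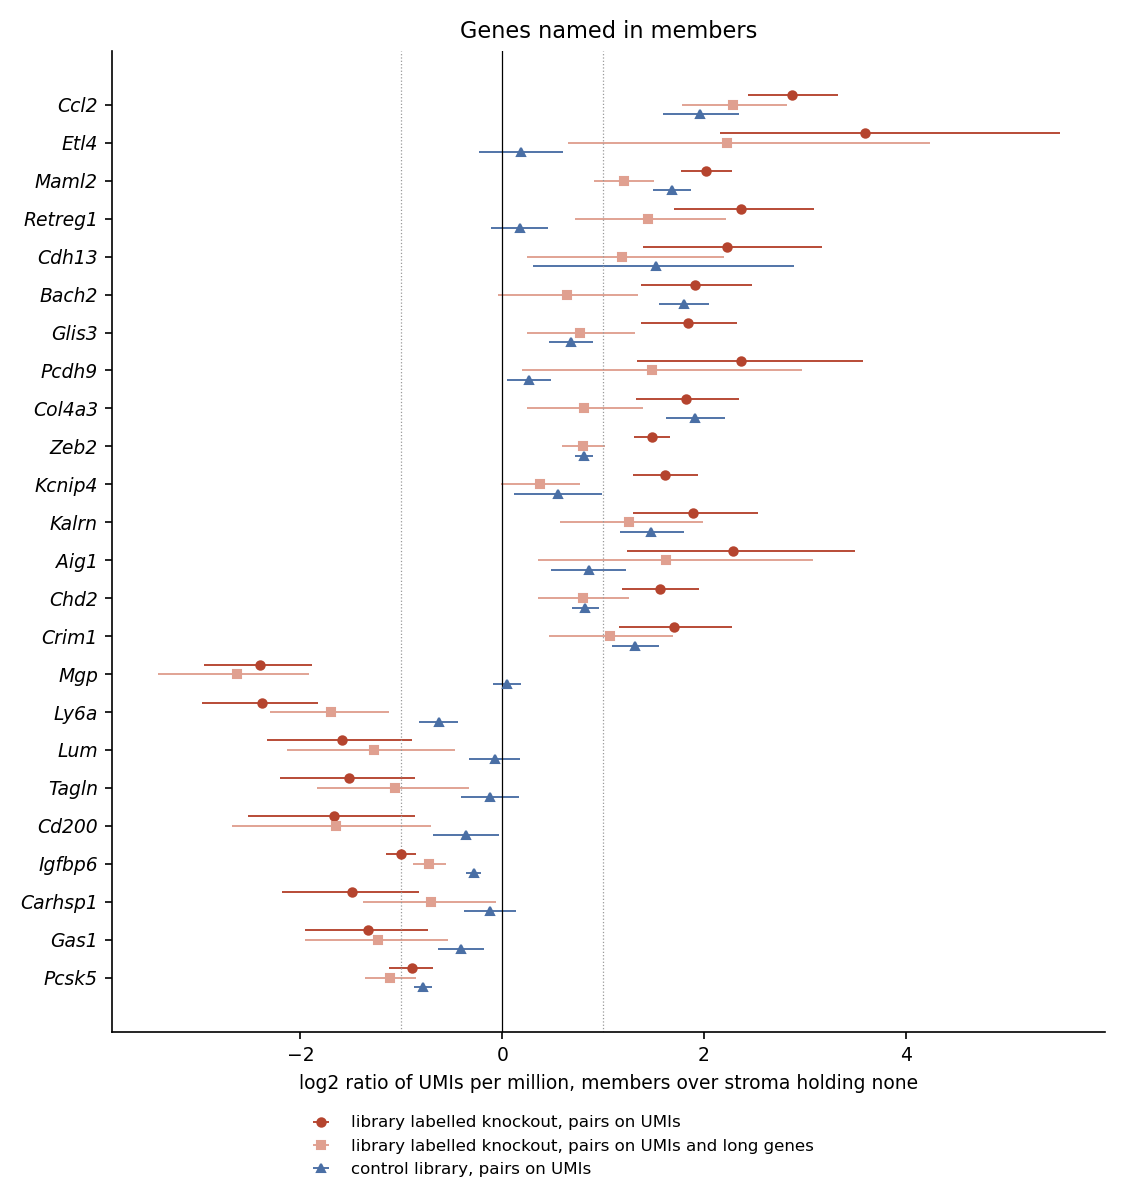
Log2 ratio of CPM, members over stroma holding none, for 24 of the 25 genes named by rule (Rgs5 is left off for scale), in the library labelled knockout with pairs on UMIs (red circles), the same with pairs also matched on long genes (pale squares) and the control library (blue triangles), with exact 95% intervals; dotted lines mark 2-fold. Ccl2 was above 2-fold in all 3, and the plain ratio of Mgp was 0.190 in the library labelled knockout and 1.03 in the control library.

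Of the 10 genes named as lower in members, Rgs5 ranked first and is described below with the pericyte markers. Mgp, matrix Gla protein, an inhibitor of calcification, had 37 UMIs (42.3 CPM) in members and 178 UMIs (223 CPM) in cells holding none, 5.27-fold lower (3.68 to 7.73). Over all stroma of that library, 263 Mgp UMIs (2392 CPM) lay in the 40 cells of cluster 4 of the clustering described below. That cluster held 5 members and 18 cells holding none. In clusters 0 to 3 Mgp was between 31.3 and 66.0 CPM, and the part of cluster 4 in the ratio was not tested. Ly6a, a surface antigen of some stromal progenitors, was at 36.6 CPM in members and 190 CPM in cells holding none, 5.20-fold lower (3.54 to 7.88). Lum, the proteoglycan lumican, was 3.01-fold lower (1.86 to 5.03). Igfbp6, an IGF binding protein, was at 637 CPM in members and 1279 CPM in cells holding none, 2.01-fold lower (1.81 to 2.23). Pcsk5, a proprotein convertase, was at 318 CPM in members and 592 CPM in cells holding none, and Tagln, Cd200, Carhsp1 and Gas1 were between 2.51-fold and 3.17-fold lower. In the pairs matched on long genes all 10 genes named lower stayed below 1 with intervals below 1.

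Rgs5, a pericyte gene, had 1 UMI in members and 61 UMIs in 8 cells holding none, of which 19 were in 1 cell. Leaving out the cells with at least 2 pericyte markers left the paired UMIs of Mgp, Ly6a and Lum as they were, and Tagln at 28 UMIs in members and 62 UMIs in cells holding none. In the control library 8 of the 10 genes were below a ratio of 1, 5 with an interval below 1 and 0 at least 2-fold lower. Pcsk5 was closest, at 457 CPM in control members and 788 CPM in control cells holding none. Mgp was at 241 CPM in control members and 233 CPM in control cells holding none, a ratio of 1.03 (0.937 to 1.14).

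Members were not alike, and what they held went with what else they expressed. Of the 64 members with Bmp2 and Nrg1 alone, 62 lay in clusters 0 and 1 of the clustering described below, against 27 of the 41 with Wnt4 and Nrg1 and 89 of the 171 with Inhbb and Nrg1. For scale, cluster 0 held 352 and cluster 1 held 208 of all 1085 stromal cells. They held 151 and 114 of all 388 members. Only the Bmp2 and Nrg1 cells were thus well above the share of all members in these clusters. Ccl2 was at 652 CPM (561 to 755) with Bmp2 and Nrg1, 350 CPM (267 to 451) with Wnt4 and Nrg1, and 251 CPM (215 to 292) with Inhbb and Nrg1. Maml2 was at 960.5 CPM with Bmp2 and Nrg1, 998 CPM with Wnt4 and Nrg1 and 549 CPM with Inhbb and Nrg1. These differences were not tested. Spry2, a feedback inhibitor of receptor tyrosine kinases, was at 112 CPM (76.3 to 159) with Bmp2, 29.2 CPM (9.47 to 68.1) with Wnt4 and 28.3 CPM (17.0 to 44.2) with Inhbb. Axin2, a target of WNT signalling, was at 21.7 CPM (7.98 to 47.3) with Bmp2, 46.7 CPM (20.2 to 92.0) with Wnt4 and 49.1 CPM (33.8 to 69.0) with Inhbb. Igfbp6 ran the other way from Ccl2, at 431 CPM with Bmp2, 653.5 CPM with Wnt4 and 781 CPM with Inhbb. Median UMIs were 4132 with Bmp2, 3825 with Wnt4 and 3946 with Inhbb, and long genes gave 16.2%, 15.9% and 14.4% of UMIs.

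Clustering the stroma of the library labelled knockout without the 5 rule genes gave 6 clusters, which are called by number. Members were 114 of 208 cells (54.8%, 47.8 to 61.7) in cluster 1, led by Maml2, Lhfpl2, Bach2, Ntn4 and Ccl2, and 151 of 352 (42.9%, 37.7 to 48.3) in cluster 0, led by Dusp1, Hspa1a and Ier3, genes that respond to stress and tissue handling. They were 65 of 226 (28.8%) in cluster 3, led by Sybu, Ripor2 and Pcsk5, and 53 of 250 (21.2%) in cluster 2, led by Adh1. Cluster 4 held 40 cells led by Mgp, Clec3b and Lum, of which 5 were members, and the 9 cells of cluster 5, led by Rgs5, held 0. Members thus occurred in 5 of the 6 clusters and did not form one of their own. Median UMIs were 3949 in cluster 1, 4115.5 in cluster 0, 3556 in cluster 3, 2987.5 in cluster 2 and 2491 in cluster 4.

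The rule genes were spread differently over these clusters. Bmp2 was at 112.5 CPM in cluster 1 and 78.8 CPM in cluster 0, against 17.2 CPM in cluster 2, 7.55 CPM in cluster 3 and 0 of 40 cells in cluster 4, which allows a share of cells with a UMI of up to 8.81% (exact binomial). Nrg1 was at 1120 CPM in cluster 1 and between 136 and 587 CPM in clusters 0, 2, 3 and 4. Wnt4 was at 65.0 CPM (49.1 to 84.3) in cluster 1 and between 27.8 and 34.3 CPM in clusters 0, 2 and 3. Inhbb did not share that order, at 105 CPM (89.0 to 122) in cluster 0, 125 CPM in cluster 1, 143 CPM in cluster 2, 152 CPM (126 to 182) in cluster 3 and 173 CPM in cluster 4. It had a UMI in 33.2% of cells in cluster 0, 32.7% in cluster 1, 28.4% in cluster 2, 34.5% in cluster 3 and 32.5% in cluster 4. Alpl was at 145.5 CPM in cluster 4, in 6 of its 40 cells, and under 4 CPM in clusters 0 to 3. Epithelial markers also summed to 145.5 CPM in cluster 4, against 52.9 to 99.0 CPM in clusters 0 to 3, and their part in the Alpl level was not tested.

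**Figure D5:**
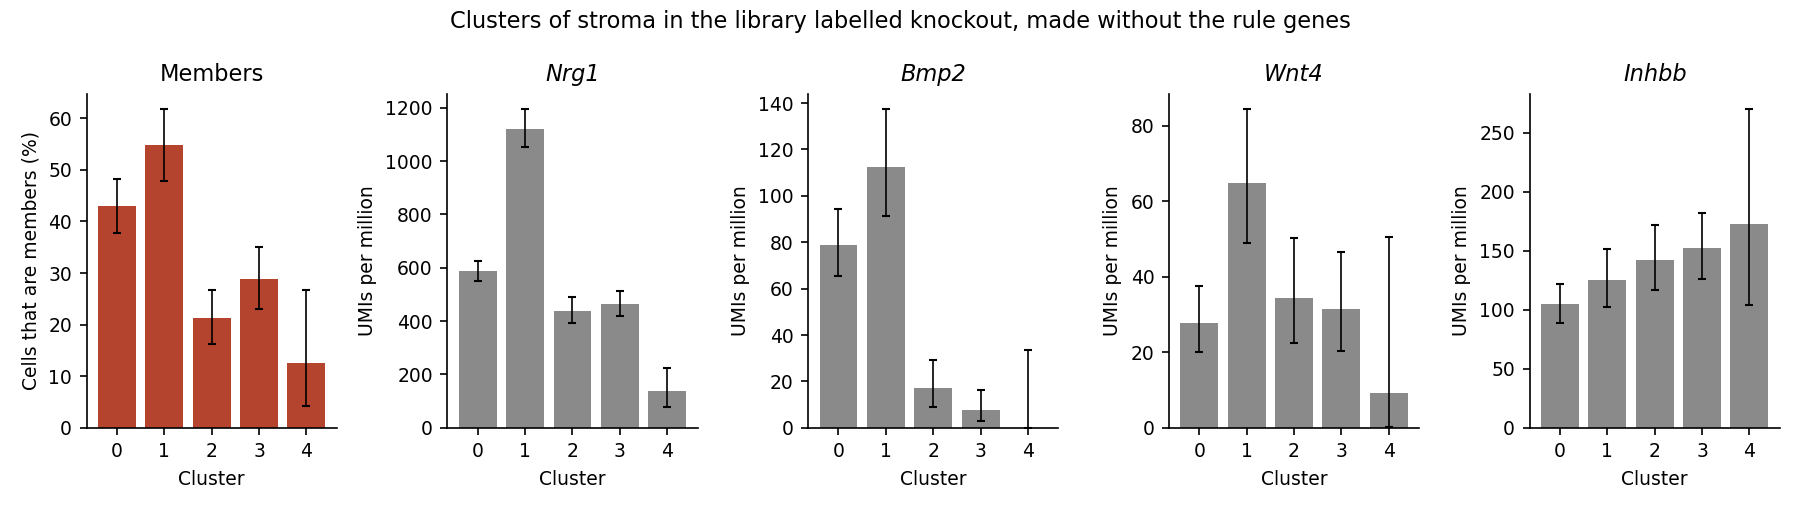
Share of cells that are members (%, left) and CPM of Nrg1, Bmp2, Wnt4 and Inhbb in clusters 0 to 4 of stroma from the library labelled knockout, with exact 95% intervals; the rule genes took no part in the clustering and the 9 cells of cluster 5 are left off. Bmp2 was at 112.5 CPM in cluster 1 and 7.55 CPM in cluster 3, while Inhbb was between 105 and 173 CPM throughout.

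The pathways of the rule genes were followed in paired members and cells holding none, over genes with at least 20 UMIs. Of 7869 such genes, 4.94% were at least 2-fold higher and 2.92% at least 2-fold lower, with a median log2 ratio of 0.00. The control library had 2.99% of 11287 genes at least 2-fold higher and 2.45% lower. Among ligands of the BMP and activin family, 1 of 7 measured was at least 2-fold higher and 0 lower: Inhba, the activin beta A subunit, with 26 UMIs in members and 3 in cells holding none, a ratio of 7.91 (2.42 to 40.8). Tgfb2 was at 126 CPM in members and 70.1 CPM in cells holding none, and at 129 CPM in control members and 57.0 CPM in control cells holding none. Its ratio was 1.79 (1.29 to 2.52) in the library labelled knockout and turned to 0.819 (0.528 to 1.27) in the pairs matched on long genes. Of 8 receptors 1 was at least 2-fold lower, Acvrl1, with 6 UMIs in members and 16 in cells holding none. Bmpr2, the type II BMP receptor, was at 184 CPM in members and 120 CPM in cells holding none, with a ratio of 1.07 (0.778 to 1.48) once matched on long genes. Of 7 antagonists 0 were past 2-fold, with the activin-binding protein Fst at 113 CPM in members and 165 CPM in cells holding none.

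Targets and SMAD proteins of the BMP pathway were not past 2-fold in any of 5 measured genes, with a median log2 ratio of -0.29. That median had no stable direction: it was 0.61 with UMI bins, 0.22 without matching, 0.58 with UMIs thinned to 2000 and 0.74 with at least 3 rule genes. Id3, induced by BMP signals, was at 167 CPM in members and 247 CPM in cells holding none, a ratio of 0.676 (0.542 to 0.842). It was at 525 CPM in control members and 302 CPM in control cells holding none, a ratio of 1.74 (1.61 to 1.88). The difference between the libraries was not tested. Id1 was at 35.4 CPM in members and 43.8 CPM in cells holding none, and the transducer Smad1 had a ratio of 1.59 (1.19 to 2.13).

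Among WNT genes, 0 of 2 ligands, 5 receptors and 4 antagonists measured were past 2-fold. Of 5 WNT targets 1 was: Axin2 had 36 UMIs in members and 11 in cells holding none, a ratio of 2.99 (1.49 to 6.51), and one of 2.16 (1.44 to 3.28) in the control library. Lef1, another target, had 11 UMIs in members and 10 in cells holding none. In the pairs matched on long genes the Axin2 ratio was 2.34 (1.08 to 5.46).

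Egfr, the EGF receptor that Mig-6 inhibits, was at 383 CPM in members and 180 CPM in cells holding none, a ratio of 2.12 (1.74 to 2.60), and 1.66 (1.32 to 2.10) in the pairs matched on long genes. Egfr was at 263 CPM in control members and 217 CPM in control cells holding none. Errfi1 was at 851 CPM in members and 688 CPM in cells holding none, a ratio of 1.24 (1.11 to 1.38), and at 171 CPM in control members and 200 CPM in control cells holding none. Feedback genes of the ERK pathway were all above a ratio of 1, 8 of 8 measured, with a median log2 ratio of 0.55. Over all 7869 genes measured, 3949 were above 1. Past 2-fold were 3 of the feedback genes, with ratios of 4.31 (2.22 to 9.17) for Spry2, 2.93 (1.58 to 5.79) for Spred2 and 2.13 (0.769 to 6.76) for Fosl1. In the control library 9 of 11 feedback genes were above 1, with a median log2 ratio of 0.48, and Spry2 and Etv5 were at least 2-fold higher. In the pairs matched on long genes the median of this list was -0.018, while Spry2 was at 3.27 (1.45 to 8.31) and Spred2 at 1.53 (0.685 to 3.59).

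Genes of decidualization and of the progesterone response were mostly within 2-fold. Of 14 measured decidualization genes other than the rule genes, 1 was at least 2-fold higher, the transcription factor Runx1 with 28 UMIs in members and 8 in cells holding none, and 0 were lower. Runx1 had 7 UMIs in members and 7 in cells holding none once pairs were matched on long genes, a ratio of 0.936 (0.280 to 3.13). Gja1, a gap junction protein, was at 177 CPM in members and 93.9 CPM in cells holding none, and Hoxa10, a homeobox factor of the uterine stroma, at 247 CPM in members and 313 CPM in cells holding none. Igfbp1 and Prl8a2, made by decidual cells, were at 0 in both groups. Of 17 progesterone and Hedgehog genes 1 was at least 2-fold lower, the chaperone Fkbp5 at 12.6 CPM in members and 36.3 CPM in cells holding none. Pgr was at 473 CPM in members and 294 CPM in cells holding none, a ratio of 1.61 (1.37 to 1.90), and one of 1.20 (0.992 to 1.46) in the pairs matched on long genes. The estrogen receptor Esr1 was at 964 CPM in members and 528 CPM in cells holding none, a ratio of 1.83 (1.62 to 2.06), and one of 1.36 (1.19 to 1.57) in those pairs. Ptch1 and Smo, the receptor and transducer of Hedgehog ligands, had ratios of 0.544 (0.345 to 0.847) for Ptch1 and 0.585 (0.385 to 0.879) for Smo, and Ptch1 was at 0.702 (0.442 to 1.10) in those pairs.

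Matrix genes were mixed, with 1 of 23 at least 2-fold higher and 1 lower. Tnc, tenascin C, had 25 UMIs in 11 members and 3 UMIs in 3 cells holding none, a ratio of 7.61 (2.32 to 39.4), and 9 of those 25 UMIs were in 1 cell. The basement membrane collagens Col4a1 and Col4a2 both had a ratio of 1.52, and Lum was the lower one. Among 15 enzymes and inhibitors of matrix turnover, 1 was past 2-fold: Timp1 had 6 UMIs in members and 25 in cells holding none.

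Of 18 chemokine and interferon genes 4 were at least 2-fold higher and 2 lower. Besides Ccl2 they were Ccl7, at 195 CPM in members and 73.8 CPM in cells holding none (1.99 in the pairs matched on long genes), Cxcl2, with 35 UMIs in members and 9 in cells holding none, and Ifit1, with 21 UMIs in 4 members and 6 UMIs in 4 cells holding none. Of the 21 Ifit1 UMIs, 17 were in 1 cell. Cxcl12, a chemokine of resting stroma, was at 24.0 CPM in members and 60.1 CPM in cells holding none. The interferon gene Ifi27l2a was at 353 CPM in members and 373 CPM in cells holding none. Of 17 genes that respond to tissue dissociation 0 were past 2-fold and 14 were above a ratio of 1, with a median log2 ratio of 0.24. Over all 7869 genes measured, 3949 were above 1. In the control library 15 of the 17 were above 1, with a median log2 ratio of 0.40. Jun had a ratio of 1.85 (1.66 to 2.07) and Hspa1a one of 0.999 (0.923 to 1.08). The nuclear RNA Neat1 was at 882 CPM in members and 437 CPM in cells holding none, with a ratio of 1.40 (1.21 to 1.62) in the pairs matched on long genes. The part of dissociation and nuclear RNA in the chemokine values was not tested.

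Of 14 glycolysis and hypoxia genes 1 was at least 2-fold higher, Pfkp, and 1 lower, Bnip3, with a median log2 ratio of -0.03. Of 5 genes of mineral and phosphate handling 0 were at least 2-fold higher and 2 lower, Mgp and the phosphate transporter Slc20a1, which had 9 UMIs in members and 17 in cells holding none. The median log2 ratio of these 5 was -0.55, but it ran from -0.67 to 0.57 over the alternatives. Only 2 of 26 cell cycle genes had enough UMIs to be measured, and 0 of them were past 2-fold.

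Members of the library labelled knockout were last set against the 317 cells that met the same rule in the control library. Of 8428 genes measured 4.05% were at least 2-fold higher and 5.21% at least 2-fold lower; in cells holding none the shares were 4.60% higher and 10.9% lower of 11374. Inhbb was at 243 CPM in members of the library labelled knockout and 46.8 CPM in control members, a ratio of 5.20 (4.32 to 6.27). The ratio was 2.72 (2.52 to 2.94) for Nrg1, 2.30 (1.78 to 2.96) for Wnt4 and 1.18 (0.992 to 1.40) for Bmp2. A cell enters by holding these genes in either library, and the genes were chosen with values of this stroma in view. These ratios and those over all stroma below are therefore a description. Members were not matched on depth, with a median of 4001.5 UMIs in the library labelled knockout and 10380 UMIs in the control library. At least 1 UMI is needed to hold a gene, so entry alone sets a higher CPM in shallower cells. Wnt4 was in 27.1% of members of the library labelled knockout and 33.4% of control members. Its positive members had a median of 1 UMI in both libraries. The part of depth in these ratios was not tested. Over all stroma Inhbb was at 127 CPM in the library labelled knockout and 9.37 CPM in the control library, a ratio of 13.5 (11.7 to 15.7). The stromal ratios were 6.34 (6.02 to 6.68) for Nrg1, 4.83 (3.91 to 5.95) for Wnt4 and 2.39 (2.05 to 2.77) for Bmp2.

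Genes outside the rule differed between the libraries within members as well. Ccl2 was at 446 CPM in members of the library labelled knockout and 84.4 CPM in control members, a ratio of 5.29 (4.61 to 6.07), and had a ratio of 3.50 (2.56 to 4.71) in cells holding none. Kcnip4 was at 351 CPM in members of the library labelled knockout and 31.4 CPM in control members. Inhba had 46 UMIs (28.5 CPM) in members of the library labelled knockout and 11 UMIs (3.14 CPM) in control members. Bach2 was at 172 CPM in members of the library labelled knockout and 173 CPM in control members, a ratio of 0.990 (0.856 to 1.14). Mgp was at 38.4 CPM in members of the library labelled knockout and 239 CPM in control members, 6.22-fold lower, while in cells holding none it was at 233 CPM in the library labelled knockout and 272 CPM in the control library. The difference between those Mgp ratios was not tested. In the library labelled knockout Mgp was at 2392 CPM in cluster 4, which held 5 members and 18 cells holding none. It was between 31.3 and 66.0 CPM in clusters 0 to 3.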

How the data were processed

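Single-cell RNA was measured in 2 uterus libraries. The deposited files hold whole-number UMI counts per gene and barcode. Per the file headers the software was Cell Ranger 7.0.1, and the submitters' processing notes name Seurat and the build mm39. Cell types were set by gene gates, without any annotation from the authors. The reference at hand was another build, so it served only for gene span, matched by gene ID for 99.6% of 32285 features, and no coordinates are given. Barcodes under 500 genes or over 15% mitochondrial UMIs were dropped, and no doublets were removed in the main values. Members and cells holding none were paired 1 to 1 on nearest total UMIs, without replacement, within 10%; matching on long genes also asked for shares within 1 percentage point. UMIs were summed over cells and scaled to CPM. Ratios carry exact conditional intervals, and shares exact binomial ones. A gene counted as called at 2-fold or more with at least 50 UMIs, and list genes needed 20. List medians set a group at 0 to a floor of 3 counts. Named genes were the 15 higher and 10 lower with the interval bound nearest 1 farthest from it, at a ratio of at least 1.5, leaving out unnamed gene models and the rule, gate, hemoglobin, ribosomal and mitochondrial genes; list genes are named besides. The gene combinations compared, and the genes shown for them, were chosen after values were seen. Stroma was clustered with scanpy 1.11.5 (2000 variable genes, 20 components, 15 neighbours, Leiden resolution 0.5). Python 3.11.15, scipy 1.17.1 and pandas 2.3.3 were used. The contrast was also run on simulated counts that varied between the cells of a group only by depth and counting error. That run does not bear on genes whose UMIs were concentrated in a few cells. The members and lists were chosen with earlier results of these data known.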

Additional observations from a re-analysis of the deposited data

Results flagged for a closer look

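Rgs5, a pericyte gene, had opposite ratios of members over cells holding none in the 2 libraries. The ratio was 0.0150 in the library labelled knockout, on 1 UMI in members and 61 UMIs in cells holding none, and 73.9 in the control library, on 74 UMIs in members and 1 UMI in cells holding none. The 61 UMIs lay in 8 cells and the 74 UMIs in 6 cells, with up to 25 in a single control member. The size of the ratios depended on which cells were paired. In control pairs also matched on long genes the ratio was 4.09 (2.42 to 7.27), on 74 UMIs in members and 18 in cells holding none. Such pairs of the library labelled knockout had 0 UMIs in members and 54 in cells holding none. With at least 3 rule genes asked for, the ratio in that library was 0.982 (0.0125 to 77.1). All 6 pericyte markers summed to 5 UMIs in members and 106 UMIs in cells holding none of the library labelled knockout, and to 126 UMIs in members and 28 UMIs in cells holding none of the control library. The difference was not tested.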

How the results depend on the processing

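With 1 library per genotype no replicate could be left out. No paired analysis was possible because the groups hold 1 library each. The share of members was 7.65% in the library labelled knockout and 1.41% in the control library when at least 3 genes were asked for, 20.2% and 1.39% with every cell thinned to 2000 UMIs, and 9.95% and 2.93% when Nrg1 was left out of the rule. The genes at least 2-fold higher and lower numbered 323 and 92 with UMI bins in place of pairs, 393 and 230 with at least 20 UMIs and 96 and 12 with at least 100; thinning to 2000 UMIs gave 121 higher. Matching pairs on long genes as well gave 42 higher genes, a median log2 ratio of -0.018 for the ERK feedback list, which turned its direction; the alternative also gave ratios of 0 for Alpl and 1.35 for Nrg1 when left out of the choice of cells. The causes were not tested. Of 400 values of named genes under all alternatives, 354 lay within the interval of the main value, 46 lay outside it and 0 changed sides. The filters of 20 and 100 UMIs changed only which genes were counted, so the named ratios under them could not move. The genes were also named by their main values, so these counts are a description. List medians were less stable: 43 of 400 had the opposite sign, over 16 of 25 lists. The BMP target and mineral lists did so under 6 of 16 alternatives each and the WNT target list, from -0.44 to 0.66, under 5. Matching on long genes, leaving out pericyte marker cells and dropping Nrg1 or Alpl from the rule were chosen after seeing the data. Scrublet scores took 7 stromal cells, 4 of them members, from the library labelled knockout. Members had 802 to 11371 UMIs, so a rule gene that was not seen may still have been expressed.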
